A study of Mus musculus with 8 samples.

Results

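The chemokines and chemokine receptors described here are the 56 protein-coding genes whose GRCm38 symbol starts with Ccl, Cxcl, Ccr or Cxcr followed by a digit, together with Cx3cl1, Cx3cr1, Xcl1 and Xcr1. They were picked by name from 55450 gene identifiers, 21951 of them protein-coding, with earlier results of these data known. Of the 56 genes, 37 encode ligands and 19 encode receptors. Another 3 genes with such names (Cxcl11, Ccl19-ps1 and Ccl19-ps3) are not protein-coding in GENCODE M21 and were left out.

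The cells were primary hepatocytes from 8-week-old C57BL/6 mice. WT cells carried floxed Slc39a8 (F/F) without Cre, and LSKO cells were Alb-cre(+/+);Slc39a8(F/F), in which the albumin promoter drives Cre in hepatocytes, so other liver cells in a culture are not the target of the deletion. Slc39a8 encodes ZIP8, a transporter of metal ions and selenite. All cells were kept in serum-free DMEM/F-12 with dexamethasone, a glucocorticoid that lowers many inflammatory transcripts. WT cells without added metal and LSKO cells without added metal gave 2 libraries each. LSKO cells given manganese chloride, ferrous chloride, sodium selenite or zinc chloride at 2 µM gave 1 library each, with 24 h of incubation in the treatment protocol and overnight incubation in the study design. The labels give no incubation time for cells without added metal, so a difference in culture time cannot be told apart from a metal. No WT culture received a metal, and no source says whether the paired libraries came from separate mice, so the spread between them may be technical.

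Chemokines are small secreted proteins that bind G-protein-coupled receptors and guide the movement of leukocytes. In the liver, CXCL1 and CXCL2 draw neutrophils through CXCR2, CCL2 draws monocytes through CCR2, and CXCL9 and CXCL10 draw T cells and natural killer cells through CXCR3. Hepatocytes, Kupffer cells (the resident macrophages), endothelial cells and stellate cells can all make ligands, whereas most of the receptors sit on leukocytes. Many inflammatory ligand genes are classical targets of NF-κB, and Cxcl9 and Cxcl10 are classical targets of interferon signaling.

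Reads in genes numbered 19943899 to 27731054 per library. The targeted gene, Slc39a8, had 367 and 356 reads in WT, 185 and 51 in untreated LSKO and 30 to 75 in the metal-treated LSKO libraries, and its log2 fold change in untreated LSKO against WT was −1.52 (SE 0.44, adjusted p = 0.0426). The hepatocyte marker Alb had 405825 to 877452 reads in every library. The libraries fell into 3 kinds by their alignment summaries. The WT, iron, selenite and zinc libraries each had 592678 to 680199 reads set aside for low alignment quality, the untreated LSKO libraries had 0, and the manganese library had 62. Reads assigned to no gene made up 4.48% of the manganese library and 42.3% to 45.6% of the others. Comparisons of each metal, manganese included, with untreated LSKO, and of untreated LSKO with WT, therefore cross kinds of library. That difference cannot be told apart from the treatment or genotype. Selenite against the mean of iron and zinc stays within 1 kind, as does the mean of iron, selenite and zinc against WT.

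The promoters of Cxcl1, Cxcl2 and Cxcl10 are shown because these ligand genes were called higher with selenite and with zinc and carry letters of the NF-κB consensus, and that of Ccl3 because it was called higher with the same metals and carries none. Each run holds the 250 bases before the transcription start of the RefSeq model on GRCm38.p6, written in the direction of the gene. Capitals mark matches to GGGNNNTTCC or GGGNNNTCCC (NF-κB) or to GAAANNGAAA (the interferon-stimulated response element, ISRE), on either strand, and matches that overlap run together.
Cxcl1, chr5:90890995-90891244, plus strand: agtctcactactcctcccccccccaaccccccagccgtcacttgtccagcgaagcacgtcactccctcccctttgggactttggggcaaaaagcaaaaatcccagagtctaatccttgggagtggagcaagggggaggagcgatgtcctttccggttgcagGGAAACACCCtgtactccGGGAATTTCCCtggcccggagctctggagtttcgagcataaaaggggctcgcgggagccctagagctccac
Cxcl2, chr5:90903649-90903898, plus strand: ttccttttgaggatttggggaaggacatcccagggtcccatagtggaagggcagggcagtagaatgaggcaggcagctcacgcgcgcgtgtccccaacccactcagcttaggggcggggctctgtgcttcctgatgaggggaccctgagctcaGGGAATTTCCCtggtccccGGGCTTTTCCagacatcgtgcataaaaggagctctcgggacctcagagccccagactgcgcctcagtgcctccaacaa
Cxcl10, chr5:92348890-92349139, minus strand: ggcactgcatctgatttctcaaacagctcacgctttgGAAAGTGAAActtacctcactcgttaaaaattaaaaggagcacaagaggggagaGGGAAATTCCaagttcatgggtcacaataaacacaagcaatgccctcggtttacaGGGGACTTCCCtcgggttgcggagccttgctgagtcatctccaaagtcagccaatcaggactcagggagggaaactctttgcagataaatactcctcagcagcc
Ccl3, chr11:83649379-83649628, minus strand: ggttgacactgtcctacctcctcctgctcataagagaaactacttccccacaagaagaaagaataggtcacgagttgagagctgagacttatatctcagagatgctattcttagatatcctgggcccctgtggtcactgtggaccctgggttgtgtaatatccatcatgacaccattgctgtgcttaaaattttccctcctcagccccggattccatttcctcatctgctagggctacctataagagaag
Cxcl1 and Cxcl2, neighbours on chromosome 5, both carry GGGAATTTCC, which starts 71 bases before the start of Cxcl1 and 97 bases before that of Cxcl2. Cxcl10 carries GGGAAATTCC 159 bases and GGGGACTTCC 104 bases before its start, and the ISRE letters GAAAGTGAAA 213 bases before it. A promoter window was at hand for 14 of the 19 members tested. NF-κB letters lay in 7 of these 14 (Ccl9, Ccl20, Cxcl1, Cxcl2, Cxcl9, Cxcl10 and Cxcl13), against 8.67% of 27025 windows of all genes. ISRE letters lay in 2 of the 14 (Cxcl10 and Cxcl14), against 3.04% of all windows. The windows of Ccl3, Ccl6, Ccl25, Ccl27a, Cxcl12 and Cxcr4 held neither. These are matches of letters, not measured binding.

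A count minimum of 80 reads summed over the 8 libraries was set for testing. It kept 18 of the 37 ligands and 1 of the 19 receptors, Cxcr4. The 37 members below it comprised 6 with 20 to 79 reads in all, 15 with 1 to 19 reads and 16 with 0 reads in every library. Member reads summed to 119977, of which Ccl2 gave 42.9%, Cxcl16 33.3% and Cxcl1 10.1%. Levels are given as normalized CPM, reads per 1000000 reads in genes after TMM scaling, where 1 read is worth 0.0347 to 0.0498 depending on the library. The mean level per kilobase of exon, which allows genes to be compared, was highest for Ccl2 at 240 normalized CPM per kb, followed by Cxcl16 at 69.4, Cxcl1 at 34.6 and Cxcl10 at 6.73. Cxcr4, the receptor of CXCL12, came next at 4.89, and the other members tested lay between 0.265 (Cxcl14) and 4.43 (Ccl7). Cxcl12, the ligand of CXCR4, stood at 0.613 on that scale.

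**Figure D1:**
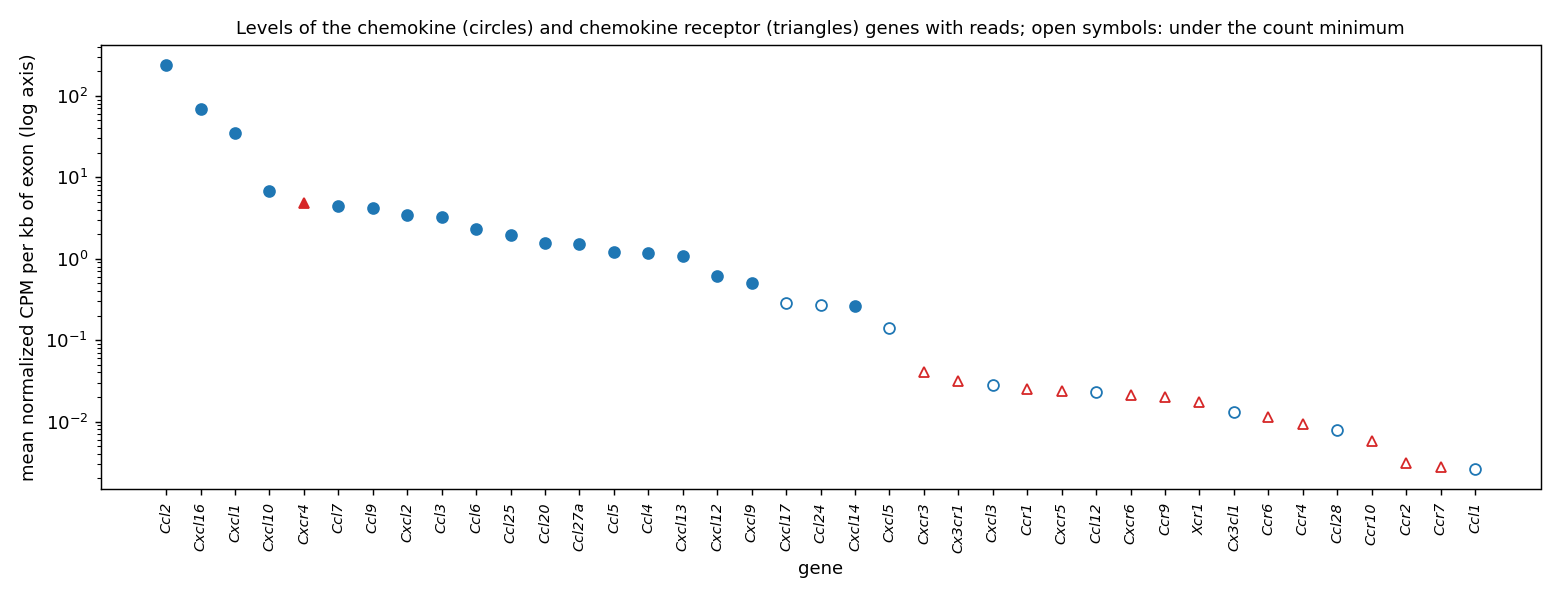
Mean normalized CPM per kilobase of exon over the 8 libraries (log axis) for the members with at least 1 read that are reported here, circles for ligands, triangles for receptors, open symbols for genes under the count minimum. Ccl2, Cxcl16 and Cxcl1 lead, Cxcr4 is the only filled triangle, and every other receptor lies below 0.05.

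A call needed an adjusted p under 0.05 in edgeR's quasi-likelihood test over all 15468 genes tested together with a log2 fold change of more than 0.5 in either direction. Of the 19 members tested, 14 were called in at least 1 comparison, and Ccl20, Ccl25, Ccl27a, Cxcl12 and Cxcl13 in none. No share of all genes called in at least 1 comparison was computed, so those 14 cannot be set beside a background. Shares over all genes are given below for each comparison. With selenite against untreated LSKO, 9 members were called higher and 1 lower, beside 7.89% of all genes called higher and 9.67% called lower. With zinc 6 were called higher and 0 lower, beside 2.9% and 1.55% of all genes. With manganese 5 were called higher and 0 lower, beside 2.09% and 15.1% of all genes. With iron 2 were called higher and 3 lower, beside 3.8% and 4.89% of all genes. The 4 metal comparisons share the 2 untreated LSKO libraries. Selenite against the mean of iron and zinc gave 8 members higher and 2 lower, beside 7.53% and 8.35% of all genes. In untreated LSKO against WT, 4 were called higher and 2 lower, beside 6.74% and 3.7% of all genes. The mean of iron, selenite and zinc against WT gave 6 higher and 2 lower, beside 7.12% and 6.93% of all genes. The count of 6 in untreated LSKO fell to 1 without WT replicate 1, 2 without WT replicate 2 and 3 without LSKO replicate 2, and the count of 5 with iron was 8 without LSKO replicate 2. For the counts of 0 lower, an unadjusted p under 0.05 was reached by 1 lower member with manganese and 0 with zinc, and DESeq2 also called 0 lower in each. Calls that DESeq2 did not make were those on Ccl4, Ccl5, Ccl7 and Cxcr4 with selenite, Ccl7 with zinc and with manganese, Ccl6, Ccl7 and Cxcl2 with iron, Ccl4, Ccl5 and Cxcl9 in untreated LSKO, Cxcl10 in selenite against the mean of iron and zinc, and Cxcr4 in the mean of iron, selenite and zinc against WT.

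**Figure D2:**
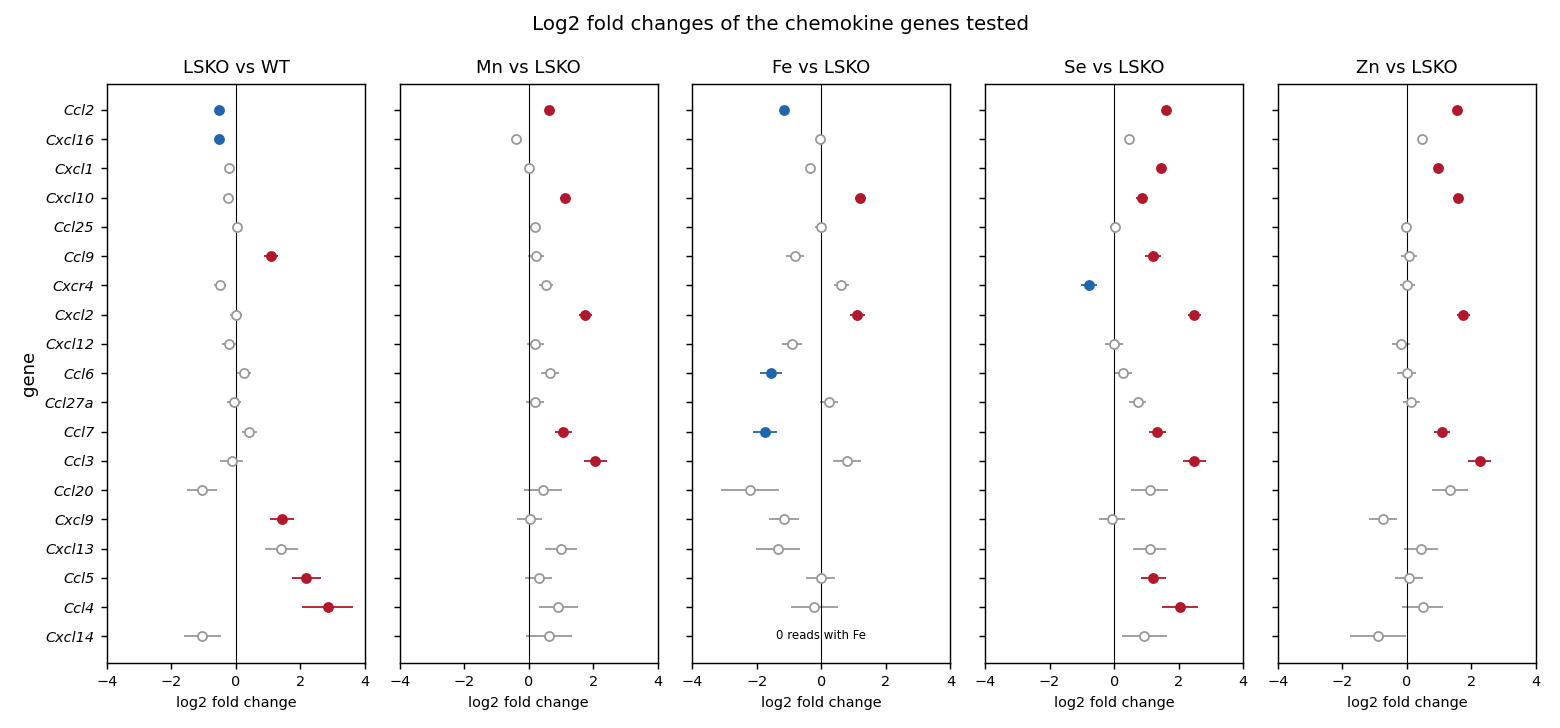
Log2 fold change (x axis) with its standard error (bars) from edgeR for the 19 members tested (y axis), in untreated LSKO against WT and in each metal against untreated LSKO. Filled red points were called higher, filled blue points called lower and open grey points were not called. Cxcl2 and Cxcl10 are red in each of the 4 metal panels, and Ccl2 is red with manganese, selenite and zinc and blue with iron.

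Cxcl1 and Cxcl2 encode ligands of the neutrophil receptor CXCR2 and lie with Cxcl5, Cxcl3 and Cxcl15 at chr5:90759360-90905938. Cxcl2 stood at 3.30 and 2.88 normalized CPM in WT, 2.86 and 3.31 in untreated LSKO, 6.73 with iron, 10.5 with manganese, 10.4 with zinc and 17.4 with selenite. Each metal library lay above the 4 untreated libraries, which overlapped one another, and the selenite library was the highest. The log2 fold change against untreated LSKO was 2.49 with selenite (SE 0.20, adjusted p = 2.45e-05), 1.75 with zinc (SE 0.21, adjusted p = 0.000569), 1.75 with manganese (SE 0.21, adjusted p = 7.32e-05) and 1.12 with iron (SE 0.22, adjusted p = 0.00998). Selenite also exceeded the mean of iron and zinc by 1.06 on the log2 scale (SE 0.19, adjusted p = 0.00428). Cxcl1 stood at 55.1 and 55.9 normalized CPM in WT, 51.3 and 44.8 in untreated LSKO, 37.6 with iron, 48.2 with manganese, 93.7 with zinc and 132 with selenite. The selenite and zinc libraries lay above all others, and the manganese library fell between the untreated LSKO libraries. Its log2 fold change against untreated LSKO was 1.46 with selenite (SE 0.10, adjusted p = 1.05e-05) and 0.96 with zinc (SE 0.10, adjusted p = 0.000291), with 0.01 for manganese (SE 0.11, adjusted p = 0.98) and −0.35 for iron (SE 0.11, adjusted p = 0.0676) not called. Of the neighbours, Cxcl5 had 49 reads in all, 14 of them with selenite and 10 with manganese, and 0 with iron. Cxcl3 had fewer than 20 reads and Cxcl15 had 0.

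Ccl2 encodes the main monocyte attractant of the CC family, and Ccl7, its neighbour, a related ligand of CCR2. They lie at chr11:82035571-82305690 with Ccl11, Ccl12, Ccl8 and Ccl1, of which Ccl11 and Ccl8 had 0 reads and the other two at most 2. Ccl2 stood at 239 and 248 normalized CPM in WT, 191 and 150 in untreated LSKO, 76.9 with iron, 262 with manganese, 503 with zinc and 519 with selenite. The iron library was the lowest of the 8, and the selenite and zinc libraries were far above the rest and close to each other. The log2 fold change against untreated LSKO was 1.61 with selenite (SE 0.12, adjusted p = 1.80e-05), 1.56 with zinc (SE 0.12, adjusted p = 2.71e-05), 0.62 with manganese (SE 0.13, adjusted p = 0.00409) and −1.15 with iron (SE 0.14, adjusted p = 0.000599). Ccl7 stood at 2.15 and 1.88 normalized CPM in WT, 2.78 and 2.61 in untreated LSKO, 0.797 with iron, 5.68 with manganese, 5.71 with zinc and 6.82 with selenite. As for Ccl2, iron was lowest and selenite highest, but here the WT libraries lay below the untreated LSKO libraries. Levels per kilobase were 4.43 normalized CPM for Ccl7 against 240 for Ccl2. The Ccl7 log2 fold change against untreated LSKO was 1.34 with selenite (SE 0.25, adjusted p = 0.00411), 1.08 with zinc (SE 0.25, adjusted p = 0.0344), 1.08 with manganese (SE 0.25, adjusted p = 0.0109) and −1.75 with iron (SE 0.37, adjusted p = 0.0125). The zinc call on Ccl7 was lost without WT replicate 1 (1.09, adjusted p = 0.0512), without WT replicate 2 (1.09, adjusted p = 0.0510) and without LSKO replicate 2 (1.05, adjusted p = 0.0573), and held under 6 of 12 settings.

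Ccl3, Ccl4, Ccl5, Ccl6 and Ccl9 encode CC ligands that draw monocytes, macrophages and T cells, and lie together at chr11:83525778-83664683. All 5 passed the count minimum, and 4 were called higher with selenite. Ccl3 stood at 0.798 and 1.40 normalized CPM in WT, 0.881 and 1.07 in untreated LSKO, 1.69 with iron, 4.11 with manganese, 4.69 with zinc and 5.48 with selenite. The manganese, selenite and zinc libraries lay apart from the other 5. The log2 fold change of Ccl3 against untreated LSKO was 2.48 with selenite (SE 0.36, adjusted p = 0.00105), 2.25 with zinc (SE 0.36, adjusted p = 0.00359) and 2.06 with manganese (SE 0.36, adjusted p = 0.00152). With iron it was 0.79 (SE 0.42, adjusted p = 0.255).

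Ccl9, expressed by macrophages and other myeloid cells, stood at 6.98 and 4.97 normalized CPM in WT, 10.1 and 15.6 in untreated LSKO, 7.38 with iron, 15.0 with manganese, 13.5 with zinc and 29.8 with selenite. The selenite library was the highest, the WT libraries were the lowest, and the manganese and zinc libraries lay between the untreated LSKO libraries. Its log2 fold change was 1.20 for selenite against untreated LSKO (SE 0.24, adjusted p = 0.00493), 1.58 for selenite against the mean of iron and zinc (SE 0.24, adjusted p = 0.00222) and 1.10 for untreated LSKO against WT (SE 0.22, adjusted p = 0.00701). Ccl6 stood at 4.30 and 2.88 normalized CPM in WT, 4.27 in each untreated LSKO library, 1.45 with iron, 6.78 with manganese, 4.24 with zinc and 5.14 with selenite. Iron was the lowest library, and the log2 fold change against untreated LSKO was −1.56 (SE 0.35, adjusted p = 0.0174).

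Ccl4 and Ccl5 were the scarcest ligands of this cluster. Ccl4 had 4 and 0 reads in WT, 13 and 16 in untreated LSKO, 10 with iron, 26 with manganese, 20 with zinc and 49 with selenite. The selenite library stood at 2.42 normalized CPM (95% exact Poisson interval 1.79 to 3.20, counting error only), and each LSKO library lay above WT replicate 1 at 0.139 (0.0378 to 0.355). Ccl5 had 6 and 7 reads in WT, 27 and 31 in untreated LSKO, 23 with iron, 34 with manganese, 30 with zinc and 55 with selenite. Again the WT libraries were lowest and the selenite library highest, and the other 5 lay close together at 1.14 to 1.44 normalized CPM. In selenite against untreated LSKO the log2 fold change was 2.05 for Ccl4 (SE 0.56, adjusted p = 0.0225) and 1.22 for Ccl5 (SE 0.40, adjusted p = 0.0462). The Ccl5 call was lost without LSKO replicate 1 (1.20, adjusted p = 0.171) and without LSKO replicate 2 (1.16, adjusted p = 0.181), and held under 5 of 12 settings.

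Cxcl9 and Cxcl10 lie side by side at chr5:92321347-92348889 and encode ligands of CXCR3, a receptor of T cells and natural killer cells. Cxcl10 stood at 11.7 and 9.21 normalized CPM in WT, 8.63 and 9.12 in untreated LSKO, 20.5 with iron, 19.4 with manganese, 26.6 with zinc and 16.2 with selenite. Each metal library lay above the 4 untreated libraries, zinc was the highest, and selenite was the lowest of the 4 metals. The log2 fold change against untreated LSKO was 1.58 with zinc (SE 0.16, adjusted p = 0.000219), 1.20 with iron (SE 0.17, adjusted p = 0.00151), 1.13 with manganese (SE 0.17, adjusted p = 0.000451) and 0.87 with selenite (SE 0.17, adjusted p = 0.00541). Against the mean of iron and zinc, selenite was lower by −0.53 on the log2 scale (SE 0.17, adjusted p = 0.0473). Cxcl9 had 17 and 23 reads in WT, 45 and 61 in untreated LSKO, 19 with iron, 51 with manganese, 31 with zinc and 41 with selenite. It was not called with any metal, and against WT it was called higher in untreated LSKO, as given with the other genotype calls.

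**Figure D3:**
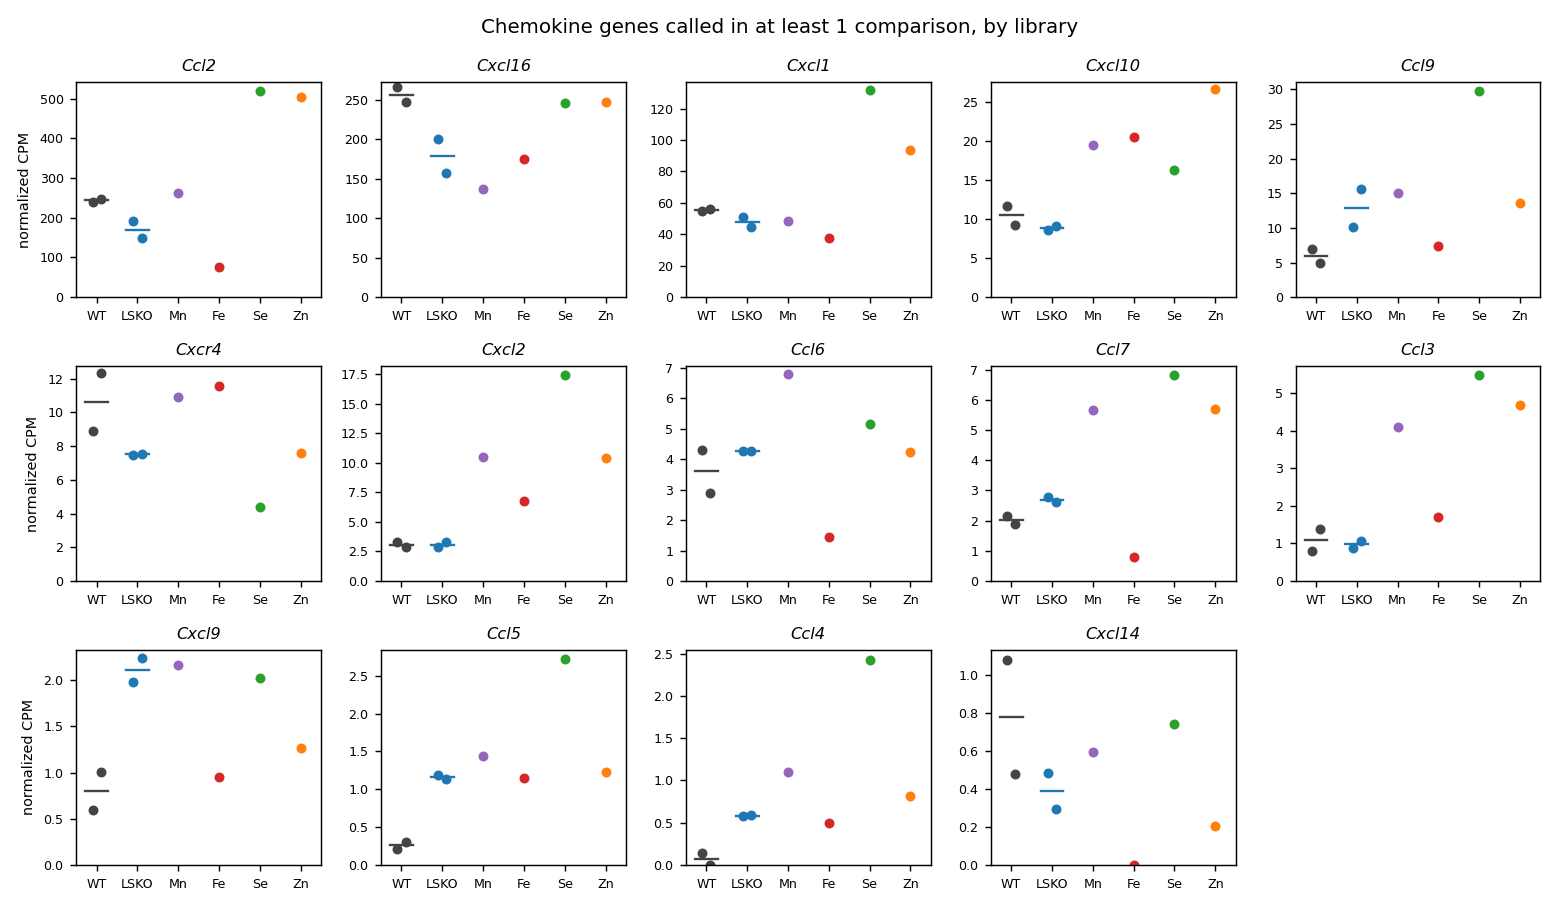
Normalized CPM (y axis, from 0) of the 14 members called in at least 1 comparison, 1 point per library and a short line at the mean of the 2 WT and the 2 untreated LSKO libraries. Ccl2, Cxcl1, Cxcl2, Ccl3 and Ccl7 are highest with selenite, Cxcl10 is highest with zinc, and Cxcr4 is lowest with selenite at 4.40.

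Cxcl12, Cxcl13, Cxcl14, Cxcl16 and Cxcl17 encode CXC ligands known mainly from resting tissues. Cxcl16, a membrane-bound ligand of CXCR6, stood at 266 and 247 normalized CPM in WT, 201 and 158 in untreated LSKO, 175 with iron, 137 with manganese, 248 with zinc and 246 with selenite. The selenite and zinc libraries were at the WT level and the manganese library was the lowest. The log2 fold change against untreated LSKO was 0.45 with selenite (SE 0.13, adjusted p = 0.0258) and 0.47 with zinc (SE 0.13, adjusted p = 0.0671), short of a call. Cxcl12 stood at 2.69 normalized CPM with iron and at 4.08 to 6.18 in the other libraries, and its log2 fold change with iron was −0.91 (SE 0.31, adjusted p = 0.0815). Cxcl13, a B cell attractant, had 7 and 15 reads in WT, 19 and 39 in untreated LSKO and 9 to 55 with the metals, and was not called. Cxcl14 had 31 and 11 reads in WT, 11 and 8 in untreated LSKO, 0 with iron, 14 with manganese, 5 with zinc and 15 with selenite. Set against the 3 reads that a count of 0 allows, the mean of untreated LSKO was 2.6-fold the iron library, and LSKO replicate 2 alone 1.97-fold. These ratios leave out the counting error of the untreated LSKO reads, so they are no lower bounds. Cxcl14 was called higher in selenite against the mean of iron and zinc (adjusted p = 0.0246). It was called lower in the mean of iron, selenite and zinc against WT (adjusted p = 0.0198). Both calls rest on the 0 with iron, and the second was lost without WT replicate 1. With 95 reads in all, 31 of them in WT replicate 1, Cxcl14 passed the count minimum only through that library. Cxcl17 had 40 reads in all, 12 with selenite, 18 with zinc and 0 to 3 in each other library, and was under the count minimum.

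Ccl20, Ccl25 and Ccl27a were the only 3 of the 11 ligand genes for lymphoid and epithelial traffic past the minimum, and none was called. Ccl25, a gut and thymus ligand of CCR9, was the steadiest member at 13.2 to 16.5 normalized CPM over the 8 libraries. Ccl27a lay at 2.97 to 3.74 normalized CPM except 5.29 with selenite, a log2 fold change of 0.73 against untreated LSKO (SE 0.27, adjusted p = 0.0644). Both Ccl25 and Ccl27a overlap a more abundant gene on the opposite strand, as given with the manganese library. Ccl20, the ligand of CCR6, had 71 and 77 reads in WT, 52 and 16 in untreated LSKO, 6 with iron, 45 with manganese, 87 with zinc and 61 with selenite. The 2 untreated LSKO libraries lay far apart and the iron library was the lowest, and the log2 fold change with iron was −2.21 (SE 0.90, adjusted p = 0.134). Of the others, Ccl17, Ccl19, Ccl21a, Ccl21b, Ccl22 and Ccl27b had 0 reads in every library. Ccl19, Ccl21a, Ccl21b, Ccl27a and Ccl27b lie together at chr4:41769467-42773993 and include near-identical copies, and reads aligning to more than 1 place were not counted, so their low counts are uncertain. Ccl24, an eosinophil attractant, had 67 reads in all, 4 to 15 per library.

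Receptor transcripts were scarce. Cxcr4 (chr1:128588199-128592293), carried by hematopoietic, endothelial and other cells, was the only receptor tested. It stood at 8.88 and 12.3 normalized CPM in WT, 7.49 and 7.54 in untreated LSKO, 11.6 with iron, 10.9 with manganese, 7.58 with zinc and 4.40 with selenite. Selenite was the lowest of the 8 libraries, and manganese and iron lay within the WT range. The log2 fold change was −0.77 for selenite against untreated LSKO (SE 0.25, adjusted p = 0.0447), −1.09 for selenite against the mean of iron and zinc (SE 0.25, adjusted p = 0.0117) and −0.54 for the mean of iron, selenite and zinc against WT (SE 0.17, adjusted p = 0.0362). The last was lost without WT replicate 2 (−0.29, adjusted p = 0.275). Ccr9 had 41 reads in all and Cx3cr1 27, with 0 to 13 per library. Another 10 receptors had 1 to 19 reads, among them Ccr2, the receptor of CCL2, with 4, all in the untreated LSKO libraries. Cxcr1, Cxcr2, Ccr3, Ccr8 and Ccr1l1 had 0 reads in every library, which allows up to 0.104 to 0.150 normalized CPM per library. The receptor genes clustered on chromosome 9 included none past the minimum. Reads of all receptors below the minimum summed to 10 (iron) to 40 (LSKO replicate 2) per library.

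The ligands called higher with selenite against untreated LSKO were the neutrophil ligands Cxcl1 and Cxcl2, the monocyte ligands Ccl2 and Ccl7, Ccl3, Ccl4, Ccl5 and Ccl9, and Cxcl10. The median log2 fold change of the 19 members tested was 1.10, against −0.01 over all genes tested. Summed member levels were 629 and 617 normalized CPM in WT, 515 and 425 in untreated LSKO, 364 with iron, 557 with manganese, 950 with zinc and 1023 with selenite. The members tested have shorter transcripts than other protein-coding genes (medians of 1805 and 3358 bases). With transcript length and GC content corrected for, the selenite log2 fold changes were 2.13 for Cxcl2 (adjusted p = 0.000133), 1.81 for Ccl3 (adjusted p = 0.0136), 1.04 for Cxcl1 (adjusted p = 0.000360) and 0.97 for Ccl2 (adjusted p = 0.00299). Under the same correction Ccl7 (0.59, adjusted p = 0.149), Ccl4 (1.46, adjusted p = 0.113) and Ccl5 (0.78, adjusted p = 0.227) were no longer called. Within libraries of like alignment summaries, selenite exceeded the mean of iron and zinc for Ccl2 (1.40, SE 0.12, adjusted p = 0.000515), Cxcl1 (1.15, SE 0.10, adjusted p = 0.000515), Ccl7 (1.67, SE 0.27, adjusted p = 0.00283), Ccl4 (1.92, SE 0.57, adjusted p = 0.0329) and Ccl6 (1.05, SE 0.30, adjusted p = 0.0294). The length and GC correction ended the calls on Ccl4 (1.37, adjusted p = 0.14) and Ccl6 (0.57, adjusted p = 0.213) here too, and left Ccl2 at 0.81 (adjusted p = 0.0115), Cxcl1 at 0.76 (adjusted p = 0.00616) and Ccl7 at 0.98 (adjusted p = 0.0465). Iron is low for Ccl2, Ccl6, Ccl7 and Cxcl1, so that mean lies well below zinc alone. Cxcl1 stood at 37.6 normalized CPM with iron, 93.7 with zinc and 132 with selenite. The median over the 19 members was 1.06, and was the same with Cxcl14 set at its bound.

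Markers of several cell types also differed between the libraries, some in the direction of these ligands and some against it. In bulk RNA, fewer cells of a type cannot be told apart from less RNA per cell. The summed level of 19 Kupffer cell and macrophage markers was 444 and 417 normalized CPM in WT, 499 and 571 in untreated LSKO, 579 with iron, 873 with manganese, 579 with zinc and 705 with selenite. Cd68 and Cd14 alone made up 455 of the sum with iron and 604 of that with manganese. The other 17 summed to 171 and 147 in WT, 186 and 212 in untreated LSKO, 123 with iron, 269 with manganese, 244 with zinc and 291 with selenite, so without these genes iron was the lowest library and selenite the highest. With selenite 6 of the 18 tested were called higher and 0 lower, led by Itgam (log2 fold change 3.11), Adgre1 (1.76), Marco (1.73) and Cybb (1.60). Itgam had 85 reads in all, 36 of them with selenite, and passed the count minimum only through that library. The median of the 18 was 0.42, and Clec4f (−0.52), Cd163 (−0.40), C1qc (−0.01) and Vsig4 (0.02) were not called. With iron 7 were called lower, led by C1qa (−1.62), Vsig4 (−1.44), Clec4f (−1.36) and C1qb (−1.35). With manganese 8 were higher and 1 lower, and with zinc 4 were higher. Of 10 neutrophil markers, 3 passed the minimum and Elane was at 0. S100a8 had 0 to 2 reads in the WT, untreated LSKO and iron libraries, 20 with manganese, 46 with selenite and 31 with zinc, and Mmp8 had 61 reads with selenite and 0 to 30 elsewhere. With 100 and 115 reads in all, neither would have reached the count minimum without the selenite library. Csf3r, the third tested, had 10 reads with selenite, 3 with iron and 21 with zinc and was not called (0.61 with selenite, SE 0.68, adjusted p = 0.54), S100a9 had 1 read with selenite, 4 with iron and 0 with zinc, and Ly6g had 1 read in all. Of 11 T and natural killer cell markers none passed the minimum and Cd3d, Cd8a, Cd2, Nkg7, Klrb1c, Ncr1 and Gzma were at 0, and of 5 B cell markers none passed. Summed endothelial markers were 268 and 281 in WT, 214 and 168 in untreated LSKO, 198 with manganese and 110 to 141 with the other metals. With iron 8 of 10 endothelial markers and 4 of 10 stellate cell and fibroblast markers were called lower, and with selenite 4 and 3. Markers of dendritic cells (6 genes, 2 tested) were called with no metal, and 3 cholangiocyte markers gave 2 lower with iron, 1 lower with manganese, 1 lower with zinc and 1 higher with selenite. Of 9 hepatocyte markers, 4 were called higher with selenite (Serpina1a 0.86, Ttr 0.75, Cyp2e1 0.69 and Alb 0.61). The rest were not called there and lay at −0.02 to 0.50. In selenite against the mean of iron and zinc, 5 of 9 were called higher. With manganese 1 was higher and 1 lower, and none was called with iron or zinc. The part of these cells in the chemokine differences was not tested.

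**Figure D4:**
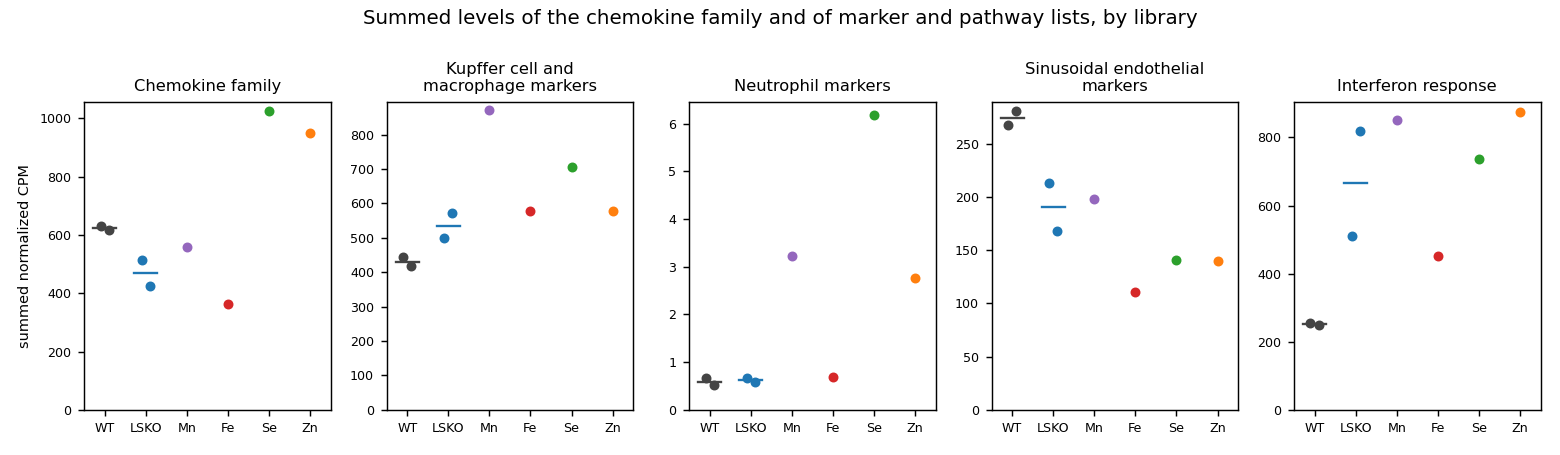
Summed normalized CPM (y axis, from 0, a scale per panel) of the 56 members and of 4 marker or pathway lists, 1 point per library, with a line at the mean of WT and of untreated LSKO. The chemokine family is highest with selenite (1023) and zinc (950), macrophage markers with manganese (873, of which Cd68 and Cd14 give 604, the other 17 being highest with selenite at 291), neutrophil markers with selenite (6.18, of which S100a8 and Mmp8 give 5.29), and endothelial markers in WT.

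Untreated LSKO differed from WT at 6 members. Ccl4 rose by 2.84 on the log2 scale (SE 0.78, adjusted p = 0.0339), Ccl5 by 2.18 (SE 0.45, adjusted p = 0.00886), Cxcl9 by 1.43 (SE 0.36, adjusted p = 0.0232) and Ccl9 by 1.10. Ccl2 and Cxcl16 were lower by −0.52 each (SE 0.105 and adjusted p = 0.00794 for Ccl2, SE 0.106 and adjusted p = 0.00851 for Cxcl16). The median of the 19 members was −0.06 against 0.00 over all genes. Each call was lost without at least 1 library. Without WT replicate 1, adjusted p was 0.101 for Ccl2, 0.139 for Cxcl16, 0.0526 for Ccl9, 0.0731 for Ccl5 and 0.123 for Cxcl9, and without WT replicate 2 it was 0.121, 0.0853 and 0.120 for Ccl2, Cxcl16 and Ccl9, and Ccl4 (2.04) was not called. The Ccl4 value without WT replicate 1 was 6.77, which is no bound, since the WT library left had 0 reads. Without LSKO replicate 2, the log2 fold changes of Ccl2 (−0.34) and Cxcl16 (−0.34) were under the limit, and Cxcl9 had an adjusted p of 0.105. The mean of iron, selenite and zinc against WT, which changes genotype and metal together, was higher for Ccl4 (3.61, adjusted p = 0.00453), Ccl5 (2.61, adjusted p = 0.00157), Cxcl2 (1.79, adjusted p = 7.53e-05), Ccl3 (1.70, adjusted p = 0.00247), Ccl9 (1.26, adjusted p = 0.00177) and Cxcl10 (0.98, adjusted p = 0.000540). The Ccl9 call there was lost without WT replicate 2 (1.04, adjusted p = 0.0652), and Ccl4 moved to 2.80 without that replicate, whose count was 0, and to 7.52 without WT replicate 1. Ccl2, at 0.16 (SE 0.10, adjusted p = 0.245), was not called there. Beside the genotype calls, 4 of 18 macrophage markers tested were higher in untreated LSKO (Clec4f 1.29, C1qa 0.82, C1qc 0.67 and C1qb 0.58). The rest of that list was not called and held both positive and negative values, with a median of 0.14 over the 18. Of 10 endothelial markers tested 4 were lower, and 7 of 9 hepatocyte markers were higher, led by Cps1 at 2.69.

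Genes of the inducing pathways were read beside the ligands. Of 16 NF-κB components and inducers tested, 7 were called higher with selenite and 2 lower. Among them the cytokine genes Il1b (2.82, SE 0.61, adjusted p = 0.0079) and Il1a (1.61, SE 0.31, adjusted p = 0.0045) and the receptor gene Tlr2 (0.84, SE 0.14, adjusted p = 0.00251) rose. Cebpb (−1.10, SE 0.14, adjusted p = 0.000526) and Rela (−0.61, SE 0.10, adjusted p = 0.00227), which encode transcription factors, were lower. Il1b had 86 reads in all, 35 of them with selenite, and passed the count minimum only through that library. Manganese gave 2 higher and 1 lower, zinc 2 and 1, and iron 3 lower, led by Vcam1 (−1.52) and Nfkbia (−0.79), the latter an inhibitor of NF-κB and itself one of its targets. Tnf, with 79 reads, and Il6, with 36, were under the minimum. Of 11 interferon response genes tested, 8 were called higher in LSKO over WT without metal, led by Mx1 (2.90), Isg15 (2.76), Ifit1 (2.55) and Ifit3 (2.46), whereas the calls with metal against untreated LSKO were 3 lower with iron and 1 lower with selenite. Cxcl10, by contrast, was called higher with each metal and stood at −0.24 in untreated LSKO against WT (SE 0.15, adjusted p = 0.316). Ifng was at 0 in every library.

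Among atypical receptors, further ligands and receptor signaling genes, 8 of the 19 tested were called in at least 1 comparison (Ackr3, Ackr4, Pf4, Mif, Arrb1, Rgs1, Rgs2 and Dpp4). The share of all genes called in at least 1 comparison was not computed, so this count has no background beside it. Pf4 had 97 reads in all, 31 of them with selenite, and passed the count minimum only through that library. Of the atypical receptors, which bind chemokines without G-protein signaling, Ackr3 was higher in LSKO over WT without metal (1.66, SE 0.27, adjusted p = 0.00234) and higher again with manganese (1.46, SE 0.26, adjusted p = 0.00162). Ackr4 was higher in untreated LSKO (0.77, SE 0.14, adjusted p = 0.00401). Its exons overlap Acad11 on the opposite strand, which was at 65.3 and 77.8 normalized CPM in untreated LSKO and 50.8 and 49.6 in WT. Reads of this pair cannot be told apart without the strand setting, which is not given. Of 3 further ligands tested, Mif was higher with selenite (0.71, SE 0.09, adjusted p = 0.000637). Of 12 receptor signaling genes tested, Arrb1, a β-arrestin gene, was lower with selenite (−1.48, SE 0.26, adjusted p = 0.00315) and with iron (−1.61, SE 0.27, adjusted p = 0.00402). Rgs2, a regulator of G-protein signaling, was higher with selenite (0.60, SE 0.19, adjusted p = 0.0375), with manganese (0.59, SE 0.19, adjusted p = 0.0483) and in LSKO over WT without metal (0.93, SE 0.17, adjusted p = 0.00381), and lower with iron (−0.79, SE 0.21, adjusted p = 0.0359).

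The manganese library needs a separate reading, because the strand setting of the counting is not given and reads of a gene and an antisense partner cannot be told apart without it. In manganese against untreated LSKO, the 5568 genes tested whose exons overlap an exon on the opposite strand had a median log2 fold change of −0.40, with 39.2% called lower, and the other 9900 genes a median of 0.07, with 1.5% called lower and 2.87% higher. Among the members tested, Cxcl16, Cxcl10, Ccl25 and Ccl27a have such an overlap. Zmynd15, opposite to Cxcl16, stood at 2.33 normalized CPM with manganese and at 72.0 to 104 in the other libraries, while Art3, opposite to Cxcl10, stayed at 0.551 to 1.60 throughout. Ackr4, which overlaps Acad11, had 4 reads with manganese and 300 to 690 in the other libraries. With genes that have no such overlap alone, the manganese calls on Cxcl2 and Ccl3 were kept, Ccl2 (0.55, adjusted p = 0.0932) and Ccl7 (1.00, adjusted p = 0.117) were no longer called, and Cxcl10 was not part of that test. Ccl2 was also under the fold limit with manganese when LSKO replicate 2 was left out (0.47, adjusted p = 0.000180).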

How the data were processed

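RNA of 8 libraries in 6 groups was read. The files hold unnormalized counts per gene as deposited. The authors made them by trimming with Trimmomatic, alignment to GRCm38 with HISAT2 and counting with HTSeq (tool names per the labels). For the annotation release and strand setting: not given in the sources used here. The sources disagree on whether 1 or both ends of each fragment were read. Reads in no gene (4.48% with manganese, 42.3% to 45.6% elsewhere) and other summary lines stayed out of library sizes. All 55450 identifiers matched GENCODE M21.

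In R 4.3.3, edgeR 4.0.16 fitted 1 model of 6 groups to genes with at least 80 counts in sum, using TMM scaling and its quasi-likelihood F-test (2 residual degrees of freedom, 8.53 prior), and Benjamini-Hochberg adjustment over 15468 genes. Groups with 1 library borrow the spread of the WT and LSKO pairs. Those pairs differed by more than counting error (chi-square per degree of freedom 5.98 and 13.3). The fit was tested on simulated counts. Intervals and floors (3 counts for a count of 0) cover counting error only. Members past the minimum are each described, those with 20 or more reads below it are named, as are up to 4 called genes per further list. The members and lists were chosen with earlier results of these data known. The rule does not cover Rela, Tnf, Il6, Cd68, Cd14, Cd163, S100a9, Csf3r, Ly6g or the opposite-strand partners Zmynd15, Art3, Elavl1, Il11ra1 and Acad11, which were picked with their values in view. The same holds for the selenite values of Clec4f, C1qc and Vsig4. Promoter windows and starts are from RefSeq. Alternatives were DESeq2 1.42.0, median-ratio size factors, other count filters, a length and GC correction, fewer groups and each replicate left out. Chosen after seeing the data were a crossed replicate block, leaving out manganese and genes without opposite-strand overlap. A receptor and a marker gene are counted in the totals and not reported here by name.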

Additional observations from a re-analysis of the deposited data

How the results depend on the processing

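Of 50 calls of members over the 7 comparisons, 28 were kept under every setting that gave them a value, and 0 changed sign. With DESeq2, calls numbered 3 in place of 6 in untreated LSKO against WT, 6 in place of 10 with selenite, 2 in place of 5 with iron, 5 in place of 10 in selenite against the mean of iron and zinc (4 of those 10 without an adjusted p) and 5 in place of 8 in the mean of iron, selenite and zinc against WT (2 of those 8 without one). No count filter gave 10 calls with iron. Genes without opposite-strand overlap gave 2 with manganese. Leaving out 1 replicate gave 1 to 8 calls in untreated LSKO against WT (lowest without WT replicate 1) and 5 to 8 with iron (highest without LSKO replicate 2). The cause was not tested.

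Replicate numbers are shared between WT and LSKO, but the deviations of replicate 1 of each group from its mean correlated at −0.123 over 10882 genes, so the numbers are taken as names only. The replicate block gave 7 calls in untreated LSKO against WT, and the crossed pairing 7. Fitting only the groups compared gives no value for selenite against the mean of iron and zinc, where no group has 2 libraries. Depth limits the 37 members under the minimum, since a count of 0 allows 0.104 to 0.150 normalized CPM in a library.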
